A study of Saccharomyces cerevisiae with 4 samples.

Results

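The genes described here are the open reading frames of *S. cerevisiae* whose systematic name carries a letter suffix, such as YMR230W-A. Members were all genes of the array's probe table with a suffixed systematic name as their symbol, except YLR342W-A, with no filter on level. A gene with several probe sets was read from the one of highest mean level. This gave 141 members, measured by 147 probe sets, of 5449 *S. cerevisiae* genes in the table. The rule leaves out genes with another symbol, so that none of the 141 had a standard gene name, and the tables used here give no role for them. The question is whether transcripts of these reading frames differ when yeast makes the human helicase RECQL5.

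RECQL5 cells were W303-1A (MATa with the alleles ura3-1, trp1-1, his3-11,15, can1-100 and ade2-1 and a leu2 allele with the mutations 3 and 112) with the plasmid pCM189::RECQL5-FLAG, which expresses FLAG-tagged human RECQL5, a DNA helicase of the RecQ family, from a tet promoter that is on without doxycycline. WT cells were the same strain with the empty pCM189 plasmid. Both were grown to mid-log phase in minimal medium with 2% glucose and no uracil, and total RNA was hybridized to Affymetrix Yeast Genome 2.0 arrays, 3 for RECQL5 cells (RECQL5 1, 2 and 3) and 1 for WT cells. The titles call the RECQL5 arrays biological replicates, whereas the source names of RECQL5 2 and 3 read RECQL6 and RECQL7, which is at odds with the titles and the strain names. All levels are log2 values made by the authors with RMA, and a change is the mean of the 3 RECQL5 arrays minus the WT array on that scale, with the standard error (SE) of the limma fit.

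Systematic names of yeast genes give the chromosome, the arm, the position counted from the centromere and the strand, W for Watson and C for Crick. A letter suffix marks a reading frame that was added between genes already numbered, in most cases because it was short or was recognised only after the first annotation of the genome. Many lie close to larger genes, and many of those that encode proteins of Ty elements, the retrotransposons of yeast, have suffixed names as well. No sequences were analysed here, so promoters and the proteins of the members are not described.

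The members were short apart from those of Ty elements. In the R64 gene table their median length was 183 bases against 1236 bases for all genes, and 122 of the 141 had at most 100 codons. The 13 members on a list of Ty reading frames, written from general knowledge of yeast, had a median of 4498 bases, and 11 of them were over 100 codons, so that "short" does not hold for most of these. The other 128 members had a median of 171 bases, with 120 of at most 100 codons.

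Member transcripts were low on all 4 arrays. Their median level was 6.69, 6.82 and 6.60 on RECQL5 1, 2 and 3 and 6.23 on the WT array, against medians of 10.26, 10.25 and 10.24 on the RECQL5 arrays and 10.24 on the WT array for all genes. The array also carries 1746 probe sets for genes that are not in the *S. cerevisiae* table. They are called fission yeast probe sets here because the array design includes fission yeast, and the species of each was not checked. Their 95th percentile on each array, which was 4.34, 4.28 and 4.35 on the RECQL5 arrays and 4.33 on the WT array, served as the background. Members above it numbered 115, 119 and 118 of 141 on RECQL5 1, 2 and 3 and 113 of 141 on the WT array. This was 81.6%, 84.4% and 83.7% on the RECQL5 arrays and 80.1% on the WT array, against 98.7%, 98.8% and 98.7% on the RECQL5 arrays and 98.5% on the WT array for all genes. Most members were therefore above this background of fission yeast probe sets. Far fewer were above the highest gene of a list of meiosis and sporulation on the same array, with 41 on all RECQL5 arrays and 23 on the WT array. That limit was 8.85, 8.87 and 8.60 on RECQL5 1, 2 and 3 and 9.90 on the WT array, so these counts do not compare the groups. The SD over the 3 RECQL5 arrays had a median of 0.137 for the members and 0.067 for all genes. It was also larger for the members between background and a level of 600, at 0.145 against 0.1 for all genes, and above 600, at 0.113 against 0.061. Among genes at background it was 0.145 for the members and 0.152 for all genes. The ranges do not match the level fully, since between background and 600 the median level was 6.15 for the members and 8.36 for all genes.

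**Figure D1:**
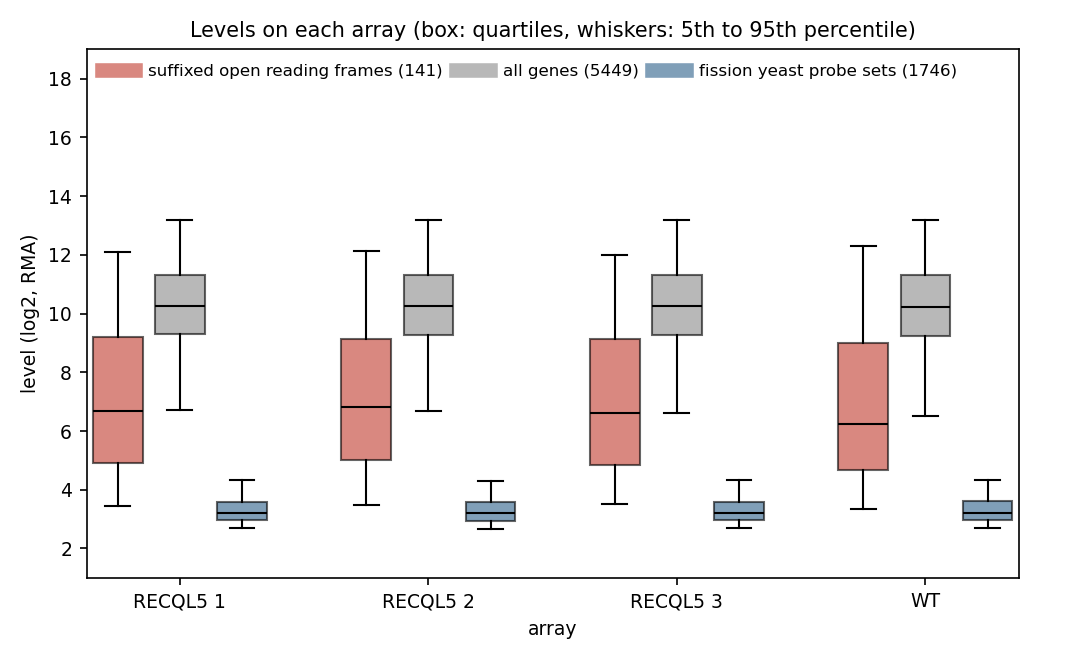
Levels (log2, RMA) on the 3 RECQL5 arrays and the WT array for the 141 suffixed open reading frames, all 5449 genes and the 1746 fission yeast probe sets, with boxes for quartiles, lines for medians and whiskers from the 5th to the 95th percentile. On each array the members lie between the fission yeast probe sets and all genes, with medians of 6.69, 6.82 and 6.60 on the RECQL5 arrays and 6.23 on the WT array.

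The members fell into classes by detection. In all, 114 were above background on every RECQL5 array, and 109 of these were also above it on the WT array. The other 5 (YAL037C-A, YBR072C-A, YBR182C-A, YBR298C-A and YML100W-A) were above background on the 3 RECQL5 arrays and below it on the WT array, and 1 (YBR200W-A) was above it on the WT array and below it on the 3 RECQL5 arrays. A further 19 were below background on all 4 arrays, and 7 crossed it in other ways. Except where the rule for named genes gave them, genes named for their detection were picked after their values were seen, as were called members outside that rule.

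More of the suffixed reading frames rose in RECQL5 cells than fell. A gene was called where the adjusted p of limma (Benjamini-Hochberg over all 5449 genes) was at most 0.1 and the change at least 1.5-fold. In all, 26 of 141 members (18.4%) were called higher, against 560 of 5449 genes (10.3%). The members called lower numbered 7 (4.96%), against 468 genes (8.59%). In each of the 33 the 3 RECQL5 arrays lay on one side of the WT array. All 3 RECQL5 arrays lay on one side of it for 79.4% of the members (112) and for 85.2% of all genes. The limma fit rests on 2 residual degrees of freedom, which the RECQL5 arrays supply, with the single WT array assumed to vary like them. The study standardized the WT array with published arrays by a method that the sources used here do not give, and it is unknown here if the WT values used include this step. If they do, the step and the effect of RECQL5 cannot be told apart. In RNA of a whole culture, fewer cells that make a transcript and less of it per cell cannot be told apart either.

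Over all 141 members the median change was 0.14 and over all genes 0.03. Taken array by array, the median difference from the WT array was 0.09, 0.16 and 0.12 for the members on RECQL5 1, 2 and 3, and 0.03 on each of them for all genes. The changes of single members ran from -1.38 to 2.43, and 86 of 141 were positive. Another 32 members passed the adjusted p with a change under 1.5-fold, 24 of them positive and 8 negative, and 76 did not pass it. Rescaling the arrays moved the median change of the members to 0.08 (cyclic loess) or 0.07 (quantile normalization over genes), and that of all genes to -0.01 and 0.01. After cyclic loess 24 members were called higher (17.0%) and 7 lower (4.96%), against 8.53% and 9.49% of all genes, for which lower calls then outnumbered higher ones. After quantile normalization 21 members were called higher (14.9%) and 7 lower (4.96%), against 9.21% and 8.79% of all genes.

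Most of the 26 higher calls were of members of low level. Between background and a level of 600 (9.23 on the log2 scale, the level the study used as a filter), 19 of 83 members were called higher (22.9%) and 3 lower (3.61%), against 12.9% and 11.7% of all 1252 genes in that range. Of the 35 members with a mean of at least 600, 6 were called higher (17.1%) and 3 lower (8.57%), and their median change was -0.03. When only genes of at least 600 were fitted, the same counts of members were called, against 9.59% of genes called higher and 7.8% called lower. Of the 23 members at background, 1 was called higher (4.35%) and 1 lower (4.35%), against 4.35% and 1.45% of the 69 genes there. Members were lower in level than other genes within the range from background to 600 as well (median 6.15 for the members, 8.36 for all genes there), and the part of level in these counts was not tested.

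**Figure D2:**
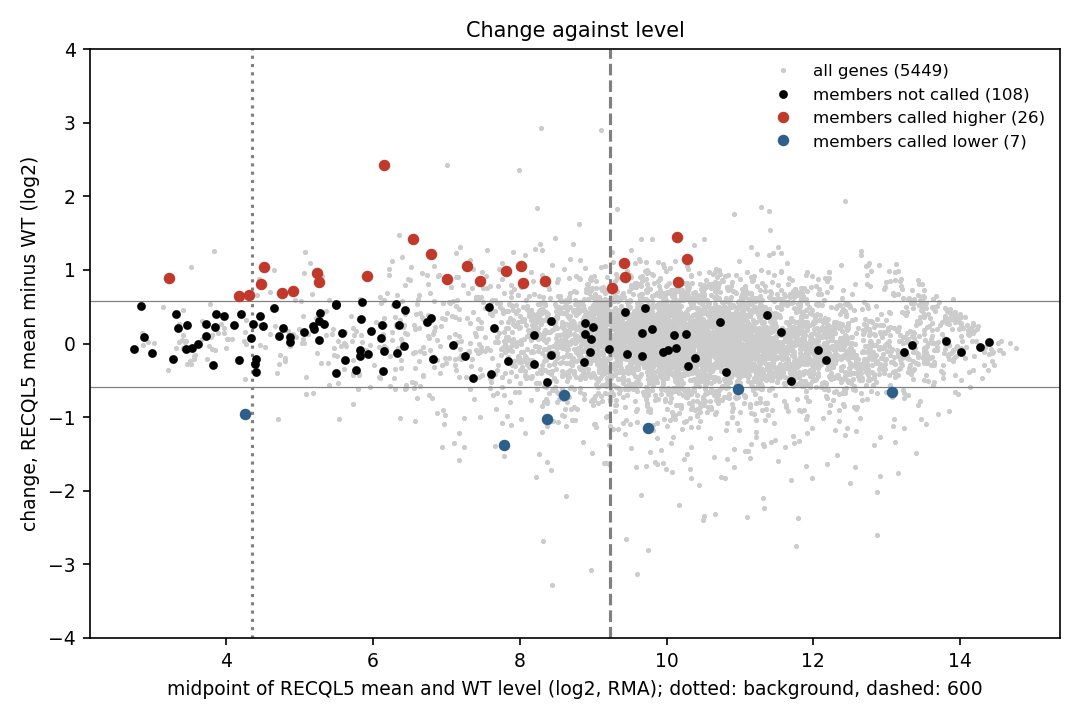
Change (RECQL5 mean minus WT, log2) against level (midpoint of the RECQL5 mean and WT, log2) for all 5449 genes in grey, the 108 members not called in black, the 26 called higher in red and the 7 called lower in blue. The horizontal lines mark 1.5-fold, the dotted line the highest of the 4 backgrounds and the dashed line a level of 600, and most red points lie between the dotted and the dashed line.

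The largest rise was that of YMR230W-A, which lies downstream of *RPS10B*, a gene for a protein of the small ribosomal subunit, on the same strand. YMR230W-A measured 7.09, 7.38 and 7.63 on RECQL5 1, 2 and 3, against 4.94 on the WT array. The WT level was just above background and all RECQL5 arrays were well above both. The change was 2.43 ± 0.21 (5.39-fold, adjusted p = 0.00282, limma), rank 4 of the 5449 genes by size of rise. *RPS10B* itself was called higher, with a change of 0.67 ± 0.07 (adjusted p = 0.00348), and *PEP5*, the gene nearest to YMR230W-A and a vacuolar trafficking gene on the same strand, had a change of 0.26 ± 0.10 and was not called.

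YKL068W-A was the member with the largest rise among those of high level. It had levels of 11.04, 10.77 and 10.78 on the RECQL5 arrays and 9.41 on the WT array. Its change was 1.45 ± 0.13 (2.73-fold, adjusted p = 0.00286, limma), rank 15 among all genes, with the WT array over 1 log2 unit below the lowest RECQL5 array. The nearest gene, *NUP100*, which encodes a nucleoporin, changed by 0.23 ± 0.08 and was not called.

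YDR182W-A measured 7.47, 7.13 and 7.16 on the RECQL5 arrays, against 5.83 on the WT array. The groups did not overlap, and the change was 1.43 ± 0.15 (2.69-fold, adjusted p = 0.00361, limma). It lies downstream of *CDC1* on the same strand, an essential gene that acts on lipid-anchored proteins, for which the change was -0.06 ± 0.07. This pair shows a member that moved while its measured neighbour gave no call.

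YOR032W-A and YCR087C-A followed in size. YOR032W-A was at 7.48, 7.44 and 7.29 on the RECQL5 arrays and 6.19 on the WT array, a change of 1.21 ± 0.10 (adjusted p = 0.00257, limma). YCR087C-A was at 10.83, 10.89 and 10.85 on the RECQL5 arrays and 9.71 on the WT array, a change of 1.14 ± 0.07 (adjusted p = 0.00199, limma). For both, the 3 RECQL5 values lay close together and far above WT. The neighbours differed: *EXO1*, an exonuclease of mismatch repair and end resection that faces YOR032W-A from the other strand, was called higher (0.87 ± 0.11), and *CSM1*, a component of the monopolin complex next to YCR087C-A, had a change of -0.09 ± 0.09.

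YMR030W-A and YMR001C-A lie beside genes of cell division. YMR030W-A, downstream of *HOF1*, an F-BAR protein gene of cytokinesis, was at 9.92, 9.90 and 10.08 on the RECQL5 arrays and 8.88 on the WT array, and changed by 1.09 ± 0.10 (adjusted p = 0.00286, limma). YMR001C-A, upstream of *CDC5*, the polo kinase gene, was at 7.59, 7.88 and 7.97 on the RECQL5 arrays and 6.75 on the WT array, and changed by 1.06 ± 0.16 (adjusted p = 0.00751, limma). In both pairs the larger gene was called higher as well, with 0.69 ± 0.07 for *HOF1* and 0.86 ± 0.09 for *CDC5*.

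Of the 3 other members among the 10 largest rises, 1 was below background on the WT array. YGR121W-A measured 8.54 on each of the 3 RECQL5 arrays and 7.49 on the WT array, a change of 1.05 ± 0.06 (adjusted p = 0.00199, limma), and its RECQL5 SD of 0.0027 was far below the median of the members. YBR182C-A measured 4.86, 5.41 and 4.84 on the RECQL5 arrays and 3.99, below background, on the WT array, so that its change of 1.04 ± 0.25 (adjusted p = 0.0251, limma) sets a low signal against none that could be told from background. YLL066W-B measured 8.31, 8.25 and 8.35 on the RECQL5 arrays and 7.32 on the WT array, a change of 0.98 ± 0.07 (adjusted p = 0.00257, limma). It lies near a chromosome end and was read by a probe set that is shared with other sequences. Of its other probe sets, a second shared one gave 0.60 and the only unshared one 0.23, and with shared probe sets left out it was no longer called (adjusted p = 0.22).

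**Figure D3:**
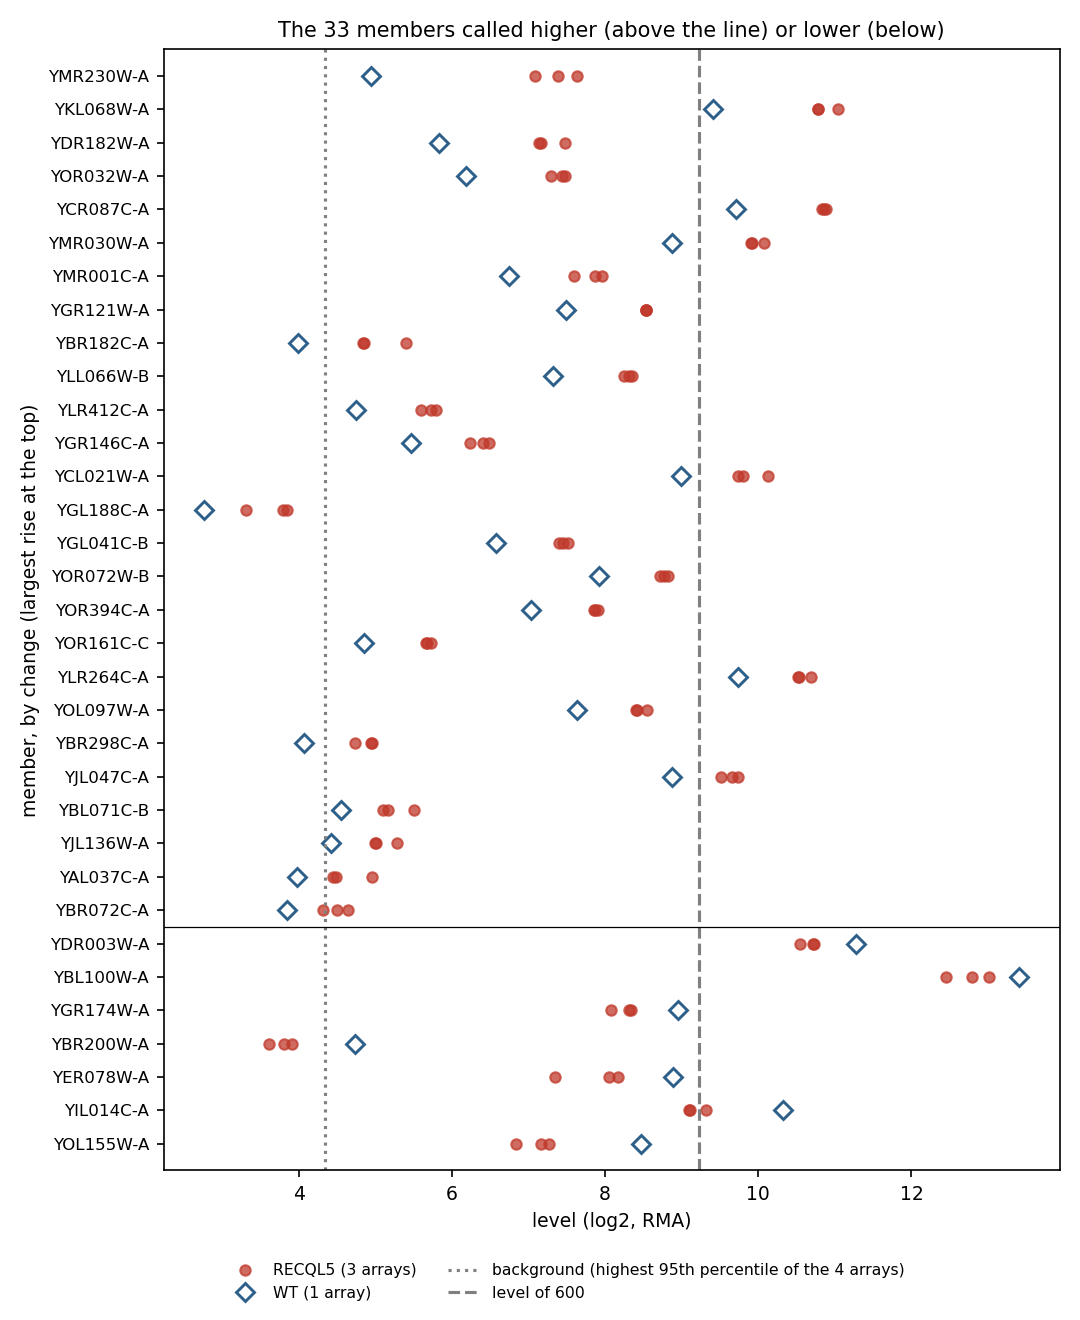
Levels (log2, RMA) of the 33 called members on the 3 RECQL5 arrays (red points) and the WT array (blue diamonds), ordered by change, with the 26 called higher above the black line and the 7 called lower below it. The RECQL5 points lie on one side of the WT diamond in every member, most of the upper ones between the dotted line (highest of the 4 backgrounds) and the dashed line (a level of 600).

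The other 16 members called higher changed by 0.65 (YAL037C-A and YBR072C-A) to 0.95 (YLR412C-A). The strongest signals among them were those of YLR264C-A, YCL021W-A and YJL047C-A. YLR264C-A, beside *NEJ1*, a gene of non-homologous end joining, was at 10.51, 10.53 and 10.69 on the RECQL5 arrays and 9.74 on the WT array (0.84 ± 0.09, adjusted p = 0.00389, limma), and *NEJ1* was called higher as well (0.97 ± 0.12). YCL021W-A was at 10.13, 9.74 and 9.80 on the RECQL5 arrays and 8.99 on the WT array (0.90 ± 0.17, adjusted p = 0.0132, limma). YJL047C-A was at 9.51, 9.74 and 9.66 on the RECQL5 arrays and 8.88 on the WT array (0.75 ± 0.11, adjusted p = 0.00647, limma), while *RTT101*, the cullin gene next to it, changed by -0.20 ± 0.07. With YKL068W-A, YCR087C-A and YMR030W-A, these 3 were the members called higher that had a mean of at least 600. The calls of YAL037C-A (0.72 with an adjusted p of 0.102 without RECQL5 1, 0.49 without RECQL5 2), YBR072C-A (0.57 without RECQL5 1) and YBL071C-B (0.58 without RECQL5 2) ended when 1 array was left out. YOR072W-B was called on a shared probe set (0.85 ± 0.07), and its unshared probe set, below background on all arrays, gave 0.14.

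At the other end of the scale, 5 of the 26 members called higher had a WT level below background. YBR298C-A, near a chromosome end beside the maltase gene *MAL32*, was at 4.73, 4.96 and 4.94 on the RECQL5 arrays and 4.07 on the WT array (0.81 ± 0.11, adjusted p = 0.00651, limma). YAL037C-A, beside the pyruvate kinase gene *CDC19*, was at 4.49, 4.96 and 4.45 on the RECQL5 arrays and 3.98 on the WT array (0.65 ± 0.22, adjusted p = 0.0631, limma). Both were less than 1 log2 unit over background on the RECQL5 arrays, as were YBR072C-A and YML100W-A, a member with a change of 0.37 that was not called. YGL188C-A was below background on every array, with 3.32, 3.80 and 3.86 on the RECQL5 arrays and 2.77 on the WT array. Its call (0.89 ± 0.23, adjusted p = 0.0315, limma) therefore compares 2 levels that cannot be told from those of fission yeast probe sets. No fold is given for changes this close to background.

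The largest fall was that of YOL155W-A, which lies near a chromosome end downstream of *HXT11*, a hexose transporter gene, on the same strand. It measured 7.16, 7.27 and 6.84 on the RECQL5 arrays, against 8.47 on the WT array. The change was -1.38 ± 0.18 (2.60-fold lower, adjusted p = 0.00546, limma), with every RECQL5 array over 1 log2 unit below WT. *HXT11* was also called lower, with a change of -0.74 ± 0.19 (adjusted p = 0.0293).

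YIL014C-A, a member of high level, was at 9.10, 9.11 and 9.31 on the RECQL5 arrays and 10.32 on the WT array. The change was -1.15 ± 0.11 (2.21-fold lower, adjusted p = 0.00294, limma), and the groups did not overlap. *MNT3*, the mannosyltransferase gene that lies next to it on the other strand, had a change of 0.16 ± 0.07 and was not called.

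The remaining falls were smaller or less even. YER078W-A was at 8.06, 8.17 and 7.34 on the RECQL5 arrays and 8.89 on the WT array (-1.03 ± 0.34, adjusted p = 0.0605, limma), and RECQL5 3 lay below the other RECQL5 arrays. Without RECQL5 1 the change was -1.13 (adjusted p = 0.106) and not called. YDR003W-A was at 10.54, 10.71 and 10.73 on the RECQL5 arrays and 11.28 on the WT array (-0.62 ± 0.10, adjusted p = 0.0088, limma), and without RECQL5 1 its change of -0.56 fell short of 1.5-fold. The genes beside both, YER079W and *RCR2*, were called lower with changes of -0.80 ± 0.15 and -0.64 ± 0.07. YGR174W-A was at 8.32, 8.34 and 8.08 on the RECQL5 arrays and 8.95 on the WT array (-0.70 ± 0.12, adjusted p = 0.0113, limma), and its second, unshared probe set gave -0.62. The convergent gene *ERG1*, which encodes squalene epoxidase of sterol synthesis, changed by 0.28 ± 0.08, the other way, and was not called. YBR200W-A, the member seen above background in WT cells only, was at 3.62, 3.92 and 3.81 on the RECQL5 arrays and 4.74 on the WT array (-0.96 ± 0.13, adjusted p = 0.00582, limma), beside *DER1*, a gene of endoplasmic reticulum-associated degradation that was called lower (-1.17 ± 0.10).

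Where a member and its nearest gene were both called, they moved the same way in 12 of 13 pairs (92.3%), against 155 of 218 (71.1%) for any gene and its nearest gene. The nearest gene in the R64 table was measured for 123 members. Of the 23 called higher among these, the nearest gene was called higher for 8 (34.8%) and lower for 1. Of the 7 called lower, the nearest gene was called lower for 4 and higher for none. Of the 93 not called, the nearest gene was called higher for 6 (6.45%) and lower for 11 (11.8%). The 8 pairs in which both were higher were YOR032W-A with *EXO1*, YLR412C-A with *INA1*, YMR030W-A with *HOF1*, YMR001C-A with *CDC5*, YOR072W-B with *SGO1* (shugoshin), YLR264C-A with *NEJ1*, YOL097W-A with *WRS1* (a tryptophanyl-tRNA synthetase) and YBR072C-A with *RDH54* (a DNA translocase of recombination). YOR161C-C was the member that went against its neighbour: it was at 5.67, 5.67 and 5.72 on the RECQL5 arrays and 4.85 on the WT array (0.84 ± 0.07, adjusted p = 0.00257, limma), while *YRR1*, a transcription factor gene of multidrug resistance upstream of it on the same strand, was called lower (-0.63 ± 0.11).

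Across the 123 pairs, Pearson's r between the change of the member and that of its nearest gene was 0.41, and 0.43 over the 105 pairs whose member was above background on at least 1 array. Over all 5029 genes with a measured nearest gene it was 0.11. There, the nearest gene was called higher for 15.7% and lower for 5.74% of the 523 genes called higher, and lower for 17.1% and higher for 7.71% of the 428 called lower. These values are across genes, which are not independent replicates, and both changes of a pair use the same WT array. By orientation, r was 0.51 for the 47 members upstream of a gene on the same strand and 0.40 for the 25 downstream of one. It was 0.39 for the 27 divergent pairs and 0.27 for the 24 convergent pairs, so that r was positive in these 4 orientations. The upstream group includes overlapping Ty frames, each counted as upstream of the other. These are YBL100W-A with YBL100W-B, YGR109W-A with YGR109W-B and YHL009W-A with YHL009W-B. The downstream group includes YEL076C-A, which overlaps its nearest gene. Over the 7 members that overlap a measured gene on the same strand r was -0.04, with the same Ty pairs again counted from both sides. The difference between these correlations was not tested, nor was the part that signal from a neighbouring transcript has in the level of a member.

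**Figure D4:**
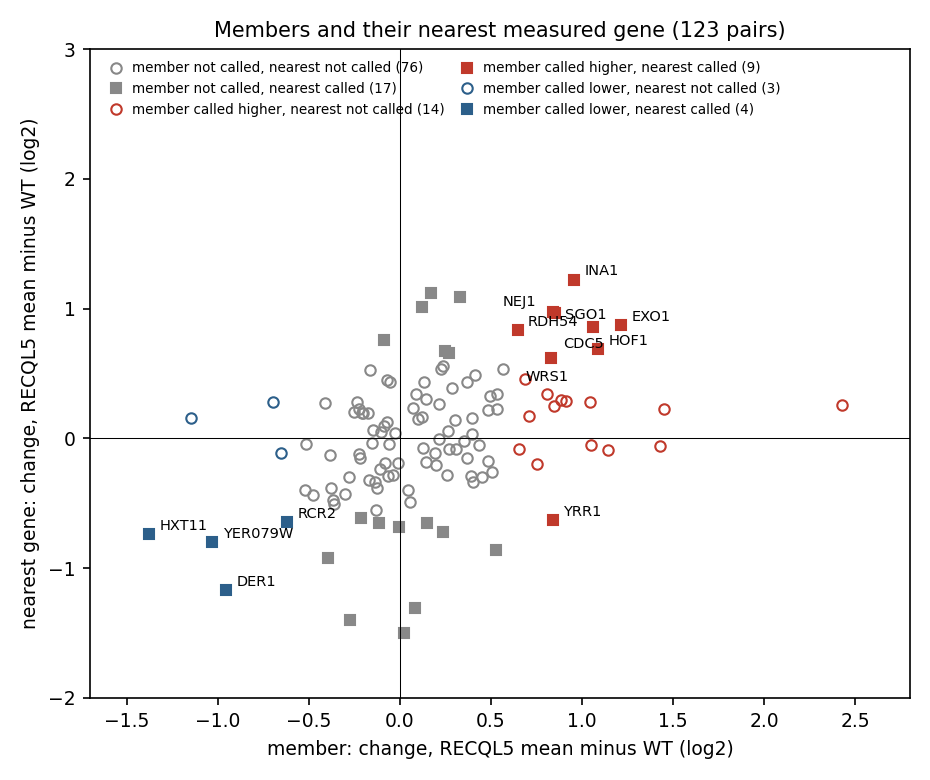
Change (RECQL5 mean minus WT, log2) of a member on the horizontal axis and of its nearest measured gene on the vertical axis for 123 pairs, with members called higher in red, called lower in blue and not called in grey, and filled squares where the nearest gene was called. Of 13 named pairs in which both were called, 8 lie in the upper right and 4 in the lower left, and *YRR1*, the neighbour of YOR161C-C, lies in the lower right.

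The 34 members that lie within 500 bases downstream of a gene on the same strand gave 6 higher calls (17.6%) and 3 lower (8.82%), against 10.3% and 8.59% of all genes. The 95 members with no overlap and no such gene gave 19 higher (20%) and 3 lower (3.16%). Counting also 1 member that overlaps another gene and leaving out 1 whose upstream gene was not measured, the change of the member and that of the upstream gene had r = 0.37 over 34 measured pairs. Of the 6 members called higher there, the upstream gene was called higher for 3 (*RPS10B*, *HOF1* and *NEJ1*) and lower for 1 (*YRR1*). Of the 11 members that overlap another gene on the same strand, 1 was called, YBL100W-A. YGL041C-B, the 1 member that overlaps a gene on the other strand, was at 7.46, 7.51 and 7.39 on the RECQL5 arrays and 6.57 on the WT array (0.88 ± 0.08, adjusted p = 0.00277, limma), and the overlapping gene, *DPC13*, was not analysed here.

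Members on the list of Ty reading frames were among the strongest signals. Of these 13, 2 had at most 100 codons, and each is taken as Ty from the list alone. Ty elements encode Gag, the coat protein, and Pol, the enzymes that copy and insert the element. Copies of the same kind of element can be near identical. Probe sets shared between sequences read 11 of the 13 members, whose values cannot be given to 1 copy. All 13 were above background on all 4 arrays, and 1 was called lower (7.69%, against 8.59% of all genes) and none higher (against 10.3%), with a median change of 0.03 and changes from -0.65 to 0.29. YBL100W-A was at 13.01, 12.79 and 12.45 on the RECQL5 arrays and 13.40 on the WT array (-0.65 ± 0.22, adjusted p = 0.0614, limma). Without RECQL5 3 its change was -0.50 and it was no longer called. YBL100W-B, a longer frame that overlaps it on the same strand, was at 12.94, 13.31 and 13.30 on the RECQL5 arrays and 13.30 on the WT array (-0.11 ± 0.17, adjusted p = 0.618, limma), so the groups overlapped there.

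**Figure D5:**
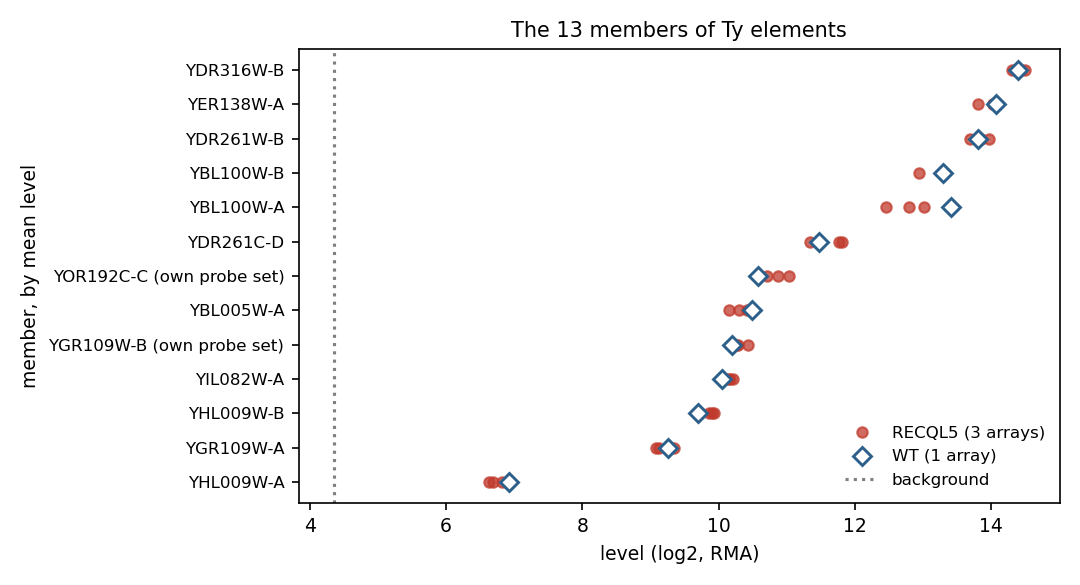
Levels (log2, RMA) of the 13 members on the list of Ty reading frames on the 3 RECQL5 arrays (red points) and the WT array (blue diamonds), ordered by mean level, with the 2 members read by an unshared probe set marked. The lowest, YHL009W-A, lies well above the dotted line, which is the highest of the 4 backgrounds, and YBL100W-A is the member with all RECQL5 points clearly below WT.

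Of the 5 members of highest level, 3 were on the list of Ty reading frames. YDR316W-B was at 14.31, 14.44 and 14.50 on the RECQL5 arrays and 14.39 on the WT array (0.03 ± 0.10, adjusted p = 0.832, limma). YER138W-A, a frame of 105 bases on the list of Ty reading frames, was at 13.81, 14.03 and 14.03 on the RECQL5 arrays and 14.07 on the WT array (-0.12 ± 0.11, adjusted p = 0.425, limma). YDR261W-B averaged 13.83 ± 0.14 (SD, n = 3) on the RECQL5 arrays and was 13.80 on the WT array. The values of RECQL5 and WT cells overlapped or nearly touched in all 3. The other 2 were YDR524C-B, at 14.28, 14.23 and 14.24 on the RECQL5 arrays and 14.30 on the WT array (-0.05 ± 0.07, adjusted p = 0.536, limma), and YCR024C-B, at 13.23, 13.39 and 13.37 on the RECQL5 arrays and 13.35 on the WT array (-0.03 ± 0.09, adjusted p = 0.829, limma). YCR024C-B lies just downstream of *PMP1*, a regulatory proteolipid gene of the plasma membrane proton pump, which was itself at 13.08, 13.29 and 13.27 on the RECQL5 arrays and 13.17 on the WT array.

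Members near chromosome ends were called higher at a share close to that of all genes. Of 24 members within 30 kb of a chromosome end in the R64 table, 3 were called higher (12.5%) and 2 lower (8.33%), against 23 (19.7%) and 5 (4.27%) of the 117 others and 10.3% and 8.59% of all genes. The 3 higher were YLL066W-B, YBR298C-A and YOR394C-A, the last at 7.87, 7.91 and 7.86 on the RECQL5 arrays and 7.03 on the WT array (0.85 ± 0.07, adjusted p = 0.00257, limma). The 2 lower were YOL155W-A and YBL100W-A. Both members in the name range of the ribosomal DNA locus gave no call. YLR154C-H was at 9.82, 9.50 and 9.88 on the RECQL5 arrays and 9.59 on the WT array (0.14 ± 0.16, adjusted p = 0.507, limma), with WT inside the range of RECQL5. YLR157W-E was at 9.20, 9.14 and 8.98 on the RECQL5 arrays and 8.88 on the WT array (0.23 ± 0.11, adjusted p = 0.135, limma), and its second, unshared probe set was below background on all 4 arrays.

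The levels of mating type genes matched the labelled strain on all arrays. The 5 genes specific to mating type a had levels of 11.28 to 13.52 on the RECQL5 arrays and 11.17 to 13.68 on the WT array, while the 4 genes of mating type alpha had 5.75 to 9.42 on the RECQL5 arrays and 5.95 to 9.07 on the WT array. The 25 genes of a list of meiosis and sporulation, which haploid cells in growth do not need, had medians of 7.05, 6.94 and 6.64 on the RECQL5 arrays and 6.73 on the WT array. Within this list *MEI4*, *SPS1*, *MND1*, *RED1*, *DIT2* and *SPO74* were called higher, *SPO11* and *HOP1* were called lower, and the others were not called. Among the mating type genes, *MFA1* (-0.63) and *MF(ALPHA)1* (-1.58) were called lower and the others were not called. Of all genes, 10.3% were called higher and 8.59% lower. A difference of the meiosis list of 25 genes from these shares was not tested. The median of the members lay below that of this list on every array. RECQL5 itself was not analysed here.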

How the data were processed

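Total RNA of 3 RECQL5 cultures and 1 WT culture was measured on Affymetrix arrays. For each array the authors deposited RMA log2 values of its probe sets (background correction, quantile normalization and median polish). RMA and limma stand in the submitters' processing notes without versions. The sources used here do not give how the study standardized the WT array with published arrays. Precision is limited by the number of arrays, with 1 for WT.

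The table holds 10928 probe sets. The probe table paired 5498 with 1 *S. cerevisiae* gene and 1 with several, gave 1746 genes that are not *S. cerevisiae* genes and did not list 3683. All 141 members were found in the R64 gene table, which gave names, lengths and neighbouring genes. It is not the build of the array, so no coordinates are printed.

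Groups and replicate numbers came from the sample titles. RECQL5 was compared with WT by lmFit and eBayes of limma 3.58.1 in R 4.3.3 (two-sided), fitted on all 5449 genes with Benjamini-Hochberg adjustment, and tested on simulated data. Calls needed an adjusted p of at most 0.1 and 1.5-fold, thresholds that the study gives with its results, although it also names a stricter p elsewhere. The calls are not those of the study, which reported far fewer altered genes, with more of them down than up. With its level filter, 396 genes were called higher and 322 lower here. The reason for this difference was not tested. The study's filter at a level of 600 was an alternative, as were other backgrounds, scalings, probe set choices and leaving out each RECQL5 array. Values after ± are SE of the fit unless marked SD.

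The members and gene lists were chosen with earlier results of these data known. Named members were the 10 largest rises and falls among calls with all RECQL5 arrays on one side of WT, the 5 highest levels, up to 4 called members per gene group (or up to 2 where none was called) and neighbours of called members. Protein hydropathy and promoter motifs, which were planned, were not analysed here.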

Additional observations from a re-analysis of the deposited data

Results flagged for a closer look

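A probe set of YLL066W-B that the comparisons did not use showed a signal above WT on every RECQL5 array. This second shared probe set was at 7.57, 7.42 and 7.36 on the RECQL5 arrays and 6.85 on the WT array, a difference of 0.60, against 0.98 on the probe set used. The third probe set of the gene, unshared, was at 7.77, 7.46 and 7.56 on the RECQL5 arrays and 7.37 on the WT array. The difference has no test of its own, since each gene entered the fit once. With 3 RECQL5 arrays and 1 WT array no group was large enough to look for a single outlying array.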

How the results depend on the processing

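The counts of called members stayed within 1.5 times those given under each scaling, probe set choice and fit that was tried, except when only genes with a mean of at least 600 were tested, which left 35 members, 6 called higher and 3 lower. With 1 RECQL5 array left out, 25 to 28 members were called higher and 5 to 7 lower, and the median change was 0.12 to 0.16. The median change was -0.026 among members of at least 600, 0.079 after cyclic loess and 0.068 after quantile normalization over genes, and the cause was not tested. Of the 26 higher calls 19 were kept in every alternative in which the member was tested, as were 4 of the 7 lower calls. Among named members, YBR298C-A missed 1.5-fold after quantile normalization (0.58) and YLL066W-B was not called without shared probe sets. YDR003W-A and YER078W-A were not called without RECQL5 1, nor was YBL100W-A without RECQL5 3. Among the other members called higher, YAL037C-A, YBR072C-A, YBL071C-B and YJL136W-A missed 1.5-fold after quantile normalization. Of these, YAL037C-A and YBR072C-A also missed it after cyclic loess.

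Members above background numbered 114 on all RECQL5 arrays (114 to 116 with 1 of these left out) and 113 on the WT array. They numbered 121 on all RECQL5 arrays and 118 on the WT array at the 90th percentile of fission yeast probe sets, and 96 and 93 at the 99th. With the highest meiotic gene of each array as the limit, they numbered 41 on all RECQL5 arrays and 23 on the WT array. This limit was higher on the WT array (9.90) than on the RECQL5 arrays (8.60 to 8.87), so those counts do not compare the groups. At a level of 600 the members above the limit numbered 34 on all RECQL5 arrays and 32 on the WT array. The SD over the RECQL5 arrays had a median of 0.145 for members at background, 0.145 for those between it and 600, and 0.113 for those above 600. No paired analysis was possible because the WT group has 1 array, so the groups share fewer than 2 replicate numbers.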

Other observations

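Among the members, 5 had more than 1 probe set, which gave 6 probe sets that the comparisons did not use. The unshared probe set of YOR072W-B was at 4.08, 4.05 and 3.63 on the RECQL5 arrays and 3.78 on the WT array, while the shared one was at 8.82, 8.77 and 8.72 on the RECQL5 arrays and 7.92 on the WT array. Likewise the unshared probe set of YLR157W-E was at 2.18, 2.56 and 2.76 on the RECQL5 arrays and 2.63 on the WT array, and the probe set used was at 8.98 to 9.20 on the RECQL5 arrays and 8.88 on the WT array. For YGR174W-A both probe sets were lower in RECQL5 cells, at 6.41, 6.67 and 6.35 on the RECQL5 arrays and 7.10 on the WT array for the unshared one.

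Several members at low level lay beside genes of very high level. YBL071C-B, beside *RPS8A*, was at 5.10, 5.51 and 5.17 on the RECQL5 arrays and 4.55 on the WT array, and *RPS8A* was at 14.27, 14.28 and 14.28 on the RECQL5 arrays and 14.11 on the WT array. YGL188C-A, below background, lies beside *RPS26A*, which was at 14.05, 14.10 and 14.10 on the RECQL5 arrays and 13.79 on the WT array.

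Over the 141 members the RECQL5 arrays had pairwise r of 0.996 to 0.997 with each other and 0.980 to 0.984 with the WT array, as a description of arrays that share the array design.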
